A study of Homo sapiens with 12 samples.

Results

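This account covers the intervals that 2 peak lists, GATA1 and TAL1 in control K562 cells, hold on the short arm of chromosome 9 (9p) and the long arm of chromosome 13 (13q). The arms were chosen by a measured value, their low number of intervals per Mb, so their sparseness is the reason for the choice and not a result. An interval belonged to 9p if its centre lay below position 47300000 of chromosome 9, and to 13q if its centre lay above position 19500000 of chromosome 13, both in human build hg19. The rule found 363 of the 24658 distinct intervals, 143 on 9p and 220 on 13q. The last interval inside the 9p limit ended at 46210713, and the next on chromosome 9 began at 66971064. On chromosome 13 the first interval inside began at 20139093, while 3 intervals lay below the limit, the nearest of them ending at 19495542.

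K562 is an established human erythroleukemia line. The series holds 12 ChIP-seq libraries (sequencing of immunoprecipitated chromatin, here cut with MNase to fragments of 1 or 2 nucleosomes) from control cells and from cells in which TRC lentiviral shRNA vectors lowered GATA1 or TAL1. Antibodies to GATA1, TAL1 and H3K27ac were used in all 3 conditions, LDB1 antibody in the control and the TAL1 knockdown, and input DNA came from the control. The labels do not say whether the control cells carried a vector. Only the GATA1 and TAL1 lists of control cells were used, with 1 library per factor and no replicate, and the other 10 libraries were not analysed here. No test was therefore made, and the exact (Clopper-Pearson) 95% bounds below cover counting error over listed intervals only. Listed intervals near each other are not independent, so these bounds are too narrow. The read depth is unknown.

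GATA1 is a zinc finger factor that drives erythroid and megakaryocytic genes. TAL1, of the basic helix-loop-helix family, often sits beside GATA1 on erythroid enhancers, with LMO2 and LDB1 as bridging partners. An interval present in both lists is named shared below, and the others are named GATA1-only and TAL1-only after their list. Among the textbook landmarks of 9p are JAK2, the kinase that carries the erythropoietin signal, and CDKN2A and CDKN2B, cell cycle inhibitors at 9p21.3 that lie near the type I interferon genes. K562 is known to lack CDKN2A through deletion of both copies. The long arm of chromosome 13 carries RB1, the retinoblastoma protein gene, the MIR17HG microRNA cluster, and long gene-poor reaches with protocadherin and SLITRK genes of neurons.

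The 9p intervals comprised 40 in both lists, 84 in the GATA1 list only and 19 in the TAL1 list only. The 13q intervals comprised 58, 121 and 41 in the same order. Over all 41 arms of chromosomes 1 to 22 and X, 78.9% of TAL1 intervals were also in the GATA1 list, and 30.9% of GATA1 intervals were also in the TAL1 list. GATA1 intervals numbered 2.62 per Mb on 9p and 1.87 per Mb on 13q, against 8.37 per Mb over the other 39 arms. TAL1 intervals numbered 1.25 and 1.03 per Mb, against 3.26. These densities chose the arms and are given as a description. Intervals covered 0.0989% of the sequence on 9p and 0.0726% on 13q, against 0.294% on the other arms.

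Both arms were uneven, but in different ways. On 9p most of the arm was in a few long empty stretches, and the sequence between them held intervals at a density closer to that of other arms. On 13q the empty stretches were more numerous and the sequence between them was thinly filled as well. An empty stretch here is sequence between neighbouring intervals, or between an interval and the arm limit, in which neither list as analysed has an interval. The input library, which would show whether reads mapped there, was not analysed here.

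Stretches of at least 1 Mb took up 36.1 Mb of 9p (76.3% of 47.3 Mb, 8 stretches) and 62.8 Mb of 13q (65.6% of 95.7 Mb, 23 stretches). Over the other 39 arms such stretches took up 43.6% of the length. The share on 9p ranked 1 of 41 arms, and that on 13q ranked 7. Empty length depends on the densities that chose the arms, so these shares are a description. Outside these stretches 9p held 12.8 intervals per Mb and 13q held 6.69 per Mb, against 16.1 per Mb on the other arms. From the sparsest upward, 13q ranked 1 and 9p ranked 11 of 41 in that density. Xq, which is also sparse, had 68.9% of its length in such stretches and 7.99 intervals per Mb outside them, values near those of 13q. The arm nearest to 9p in length, 4p, had 69.0% and 15.7 per Mb. The arm nearest to 13q in length, 12q, had 47.4% and 18.7 per Mb. The other arm of chromosome 9, added to the comparison after the values were seen, had 41.9% and 16.1 per Mb.

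**Figure D1:**
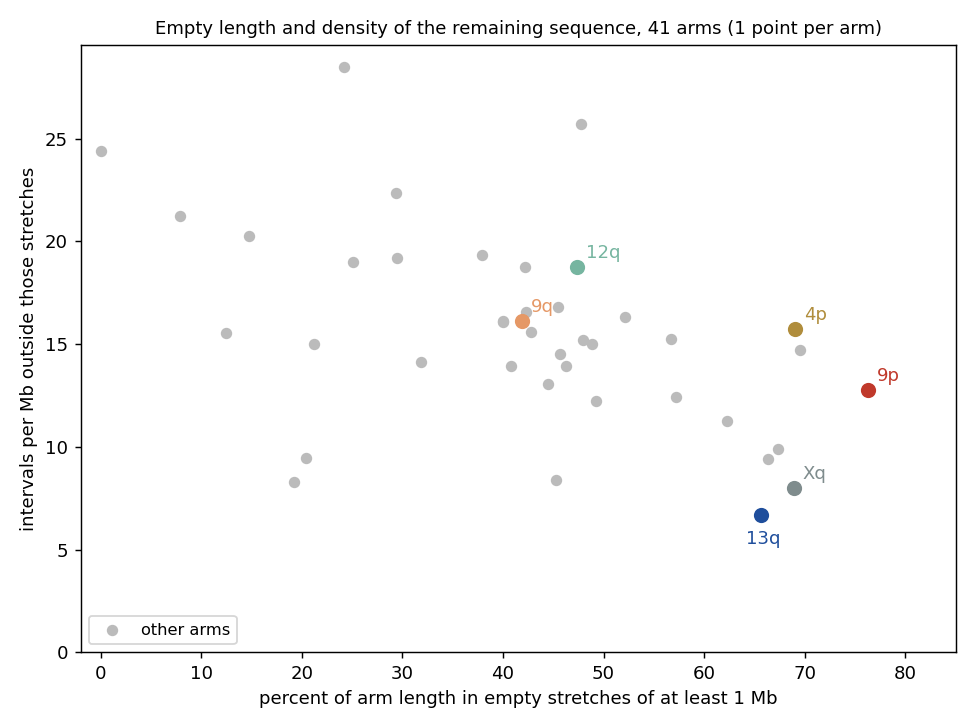
Each point is 1 of 41 chromosome arms; the x axis gives the percent of the arm's length in stretches of at least 1 Mb without an interval, and the y axis gives the intervals per Mb of the sequence outside them. 9p lies farthest to the right at 76.3%, with 12.8 intervals per Mb, while 13q lies lowest at 6.69 per Mb.

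On 9p, 6 stretches of at least 3 Mb made up 33.6 Mb, or 71.0% of the arm. The longest, 7.23 Mb at chr9:7166393-14395626, ran from 9p24.1 to 9p22.3 and took in all of band 9p23. It began and ended at a shared interval. The 6.79 Mb stretch at chr9:20692852-27482677 covered 86.1% of 9p21.3, the band of CDKN2A, and 78.4% of 9p21.2. A 5.07 Mb stretch at chr9:27483124-32552516 followed it directly and covered 87.5% of 9p21.1. The copy number of these bands was not analysed here, and its part in their emptiness was not tested. Between these neighbouring stretches stood a GATA1-only interval of 446 bp (chr9:27482678-27483123), the only interval of band 9p21.2. It lay 5.07 Mb from the nearest TAL1 interval, the largest such distance of any GATA1-only interval on the arm.

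Farther toward the centromere, a 6.39 Mb stretch at chr9:38390763-44781126 held all of 9p13.1 and 9p12 and ended in 9p11.2. This side of the centromere is known for long segmental duplications, in which short reads are hard to place. Only 3 intervals lay in 9p11.2, and all 3 were shared. The other stretches of at least 3 Mb were 4.31 Mb long at chr9:374026-4679348, with all of 9p24.2, and 3.80 Mb long at chr9:15143153-18940013, with all of 9p22.2. Band 9p24.2 carries GLIS3, a zinc finger factor of pancreas and thyroid development. The seventh stretch of the arm was 1.43 Mb long, so the lengths fell off sharply after the sixth.

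The longest stretch of 13q was 10.5 Mb (chr13:81174171-91669633). It covered 75% of 13q31.1 and all of 13q31.2, the band of SLITRK5, a membrane protein gene of neurons. It ranked 2 of all stretches on the 41 arms, after 10.55 Mb on 5p. Next came 6.73 Mb at chr13:60973613-67704637, with all of 13q21.31, and 6.65 Mb at chr13:53383847-60035594, with all of 13q21.1, the band of the protocadherin gene PCDH17. A stretch of 5.28 Mb at chr13:103259358-108535667 held all of 13q33.2, and one of 4.76 Mb at chr13:69282852-74039328 covered 85.5% of 13q21.33, the band of the developmental factor gene DACH1. The sixth measured 3.00 Mb (chr13:34392376-37388709). Together these 6 made up 38.6% of 13q, against 71.0% for the first 6 of 9p.

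Of 28 stretches of at least 5 Mb on the 41 arms, 4 were on 9p and 4 on 13q. Both arms together are 143 Mb of the 2812 Mb in all arms. Stretches of that length were found on 16 of the 41 arms, among them 14q with 3 and Xq, Xp, 18q and 1p with 2 each. Long stretches depend on the densities that chose the arms, so these counts are a description.

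**Figure D2:**
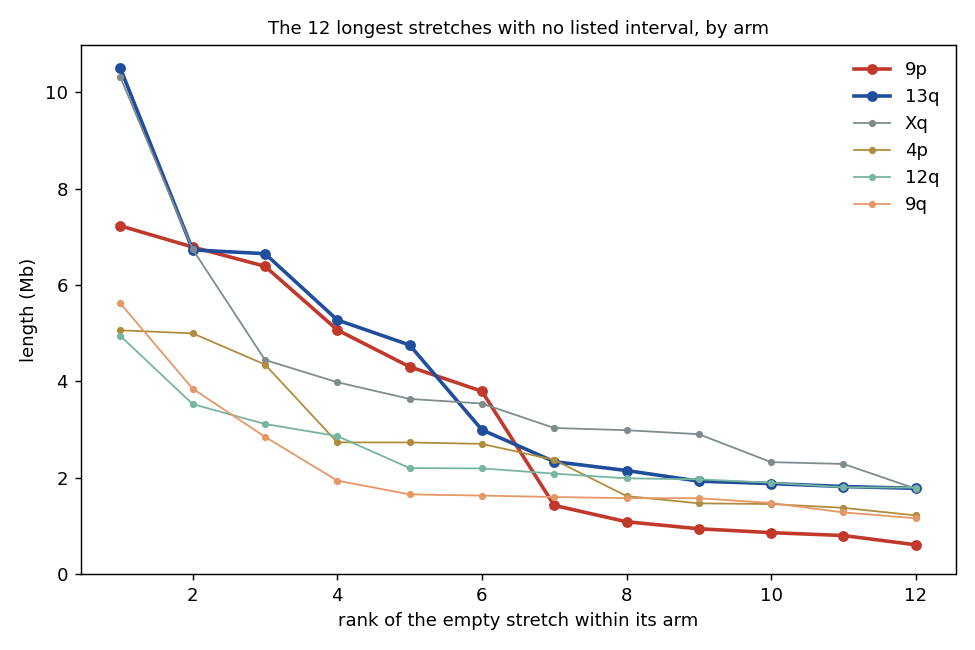
Lengths in Mb of the 12 longest stretches without an interval on 9p, 13q, Xq, 4p, 12q and 9q, ordered by rank within the arm. The first 6 on 9p measure 3.80 to 7.23 Mb before a drop to 1.43 Mb, while 13q starts at 10.5 Mb and declines to 3.00 Mb at the sixth.

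Gaps between neighbouring intervals showed the same contrast. The median gap was 31.2 kb on 9p (interquartile range 5.68 to 88.0 kb) and 61.8 kb on 13q (10.9 to 366 kb), against 19.3 kb (4.12 to 67.0 kb) on the other arms. The mean gap was 324 kb on 9p and 433 kb on 13q, against 108 kb. Gaps depend on the densities that chose the arms, so they are a description. The upper quartile on 13q was far above that of the other arms together, whereas on 9p it was nearer. Xq was like 13q, with a median gap of 71.9 kb (13.2 to 334 kb). Gaps of at most 0.0125 Mb made up 33.1% of gaps on 9p and 26.5% on 13q, against 41.6%.

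**Figure D3:**
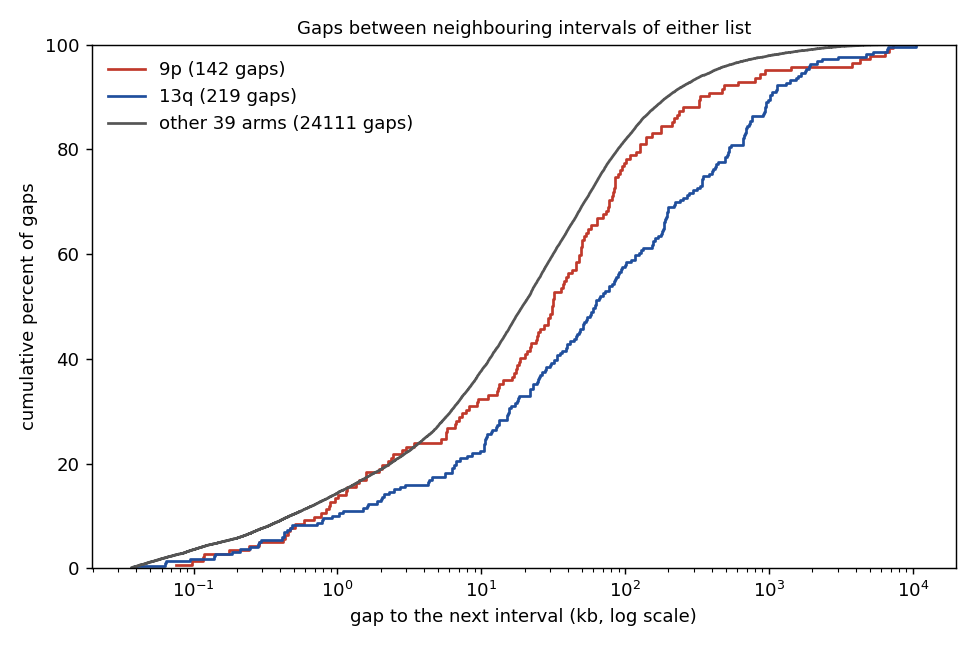
Cumulative percent of gaps between neighbouring intervals of either list against the gap in kb on a log scale, for 9p (red), 13q (blue) and the other 39 arms together (grey). The 13q curve lies to the right of the others over most of its range (median 61.8 kb), while the 9p curve (median 31.2 kb) runs between them up to about its upper quartile.

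More of the 9p intervals lay in a block toward the centromere than in all other groups of the arm together. Cutting the arm at its empty stretches of at least 1 Mb left 8 groups, and 1 of them, chr9:32552517-38390762 from 9p21.1 to 9p13.2, held 85 of the 143 intervals (59.4%) in 12.3% of the length. Its density was 14.6 intervals per Mb. It comprised 22 shared, 56 GATA1-only and 7 TAL1-only intervals. Within it, 9p13.2 held 42 intervals in 2.1 Mb and 9p13.3 held 35 at 11.3 per Mb. Background genes of these bands are PAX5, a B cell factor, at 9p13.2, and the water channel genes AQP3 and AQP7 at 9p13.3.

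The second group of 9p, chr9:4679349-7166392 in 9p24.1, the band of JAK2, held 25 intervals (10 shared, 11 GATA1-only and 4 TAL1-only). Another group, chr9:18940014-20692851 at 9p22.1 and 9p21.3, held 13 intervals, of which 9 were GATA1-only. At the tip of the arm 9 intervals lay within 0.279 Mb (chr9:95047-374025), and 4 of them were TAL1-only. The remaining groups held 7, 1, 2 and 1 intervals. Bands told the same: 5 of the 15 bands of 9p, 14.7 Mb in all, held 0 intervals, and 4 bands held 114 of the 143.

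On 13q the same cut left 24 groups, and the largest held 31 intervals, or 14.1% of the arm, at 5.38 per Mb (chr13:23388058-29149354, 13q12.12 to 13q12.3). Groups of 10 or more intervals numbered 10 on 13q and held 80.9% of its intervals. On 9p there were 3 such groups, which held 86.0%. The next largest on 13q were 25 intervals at chr13:49200132-53383846 (13q14.2 to 13q14.3), 24 at chr13:99130988-101327437 (13q32.2 to 13q32.3) and 23 at chr13:108535668-111692347 (13q33.3 to 13q34). A compact group of 7 intervals lay within 0.207 Mb at 13q32.1 (chr13:97879056-98086195). By contrast, 8 of the 24 groups were 1 or 2 intervals alone between empty stretches.

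By main band, 13q32 was the fullest of 13q at 6.87 intervals per Mb (46 intervals), followed by 13q34 at 4.93 per Mb (24 intervals). Bands 13q14 and 13q12 held 3.75 and 3.46 per Mb. The 18.0 Mb of 13q21 held 8 intervals (0.444 per Mb) and the 16.0 Mb of 13q31 held 14 (0.875 per Mb). On 9p, 9p13 held 9.87 intervals per Mb and the 13.3 Mb of 9p21 held 10 intervals, or 0.752 per Mb. Every interval but 2 in 9p21 lay in 9p21.1, at the centromeric edge.

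**Figure D4:**
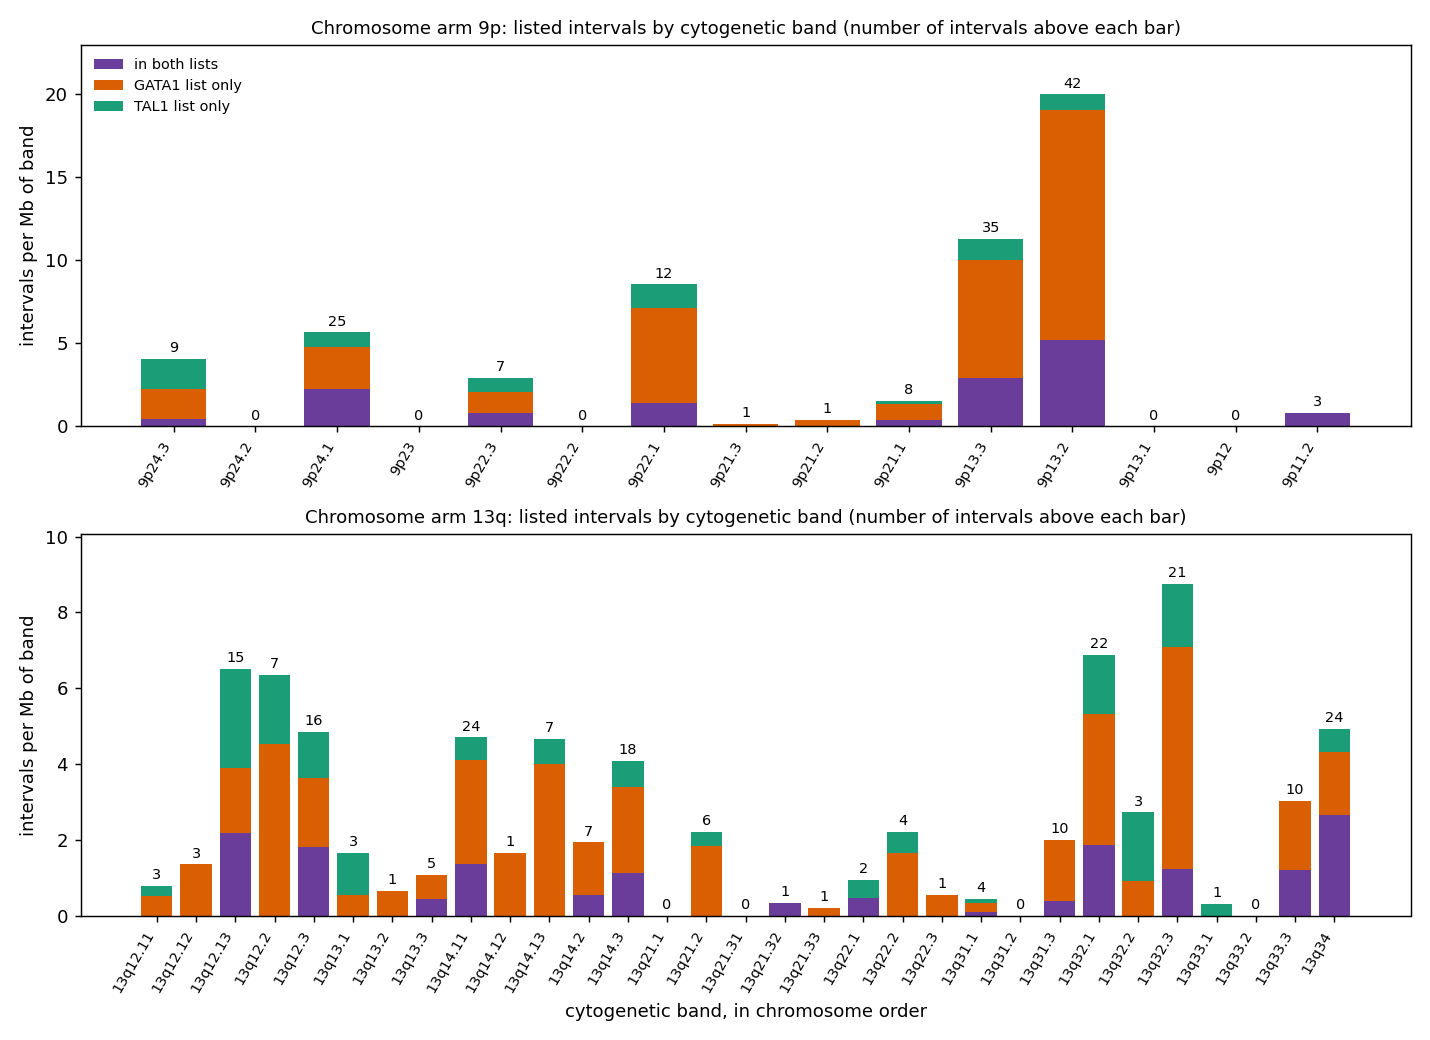
Intervals per Mb in each cytogenetic band of 9p (upper) and 13q (lower), in chromosome order, split into intervals in both lists, in the GATA1 list only and in the TAL1 list only, with the number of intervals above each bar. On 9p the bands 9p13.3 and 9p13.2 stand out with 35 and 42 intervals and 5 bands are at 0; on 13q no band exceeds 24 intervals and 4 bands are at 0.

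Dark Giemsa bands, which are gene-poor and replicate late, were the emptiest on both arms. Those with the stain classes gpos75 and gpos100 made up 34% of 9p and held 6.29% of its intervals (0.559 per Mb). On 13q they made up 38.8% and held 14.1% (0.836 per Mb). Over the other arms they made up 31.9% of the length and held 14.6% of the intervals, at 4.15 per Mb. Unstained bands held 4.14 intervals per Mb on 9p, 3.47 on 13q and 11.9 on the other arms. Light bands held 4.67, 2.29 and 10.3 intervals per Mb on 9p, 13q and the other arms. Dark, light and unstained bands were thus each sparser on both arms than the same class on the others. These densities depend on those that chose the arms, so they are a description.

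Local crowding was also uneven within the filled parts. The fullest 1 Mb bins of 9p, counted from the arm's outer end, were chr9:37000001-38000000 with 26 intervals, chr9:38000001-39000000 with 16, and chr9:4000001-5000000 and chr9:35000001-36000000 with 14 each. The fullest of 13q, counted from the lower limit, were chr13:99500001-100500000 with 17, chr13:27500001-28500000 with 13 and chr13:95500001-96500000 with 12. Bins without an interval made up 57.4% of the bins on 9p and 42.1% on 13q, against 24.5% on the other arms. Some single arms were above 13q, with 43.5% on Xq, 47.9% on 4p and 47.5% on 18q. The fullest 10% of bins held 56.6% of the intervals on 9p and 45.4% on 13q, against a median of 33.1% (range 17.2 to 54.1%) over the other 39 arms. Among single arms with like values were Xq (45.4%), 4p (47.6%), Xp (52.7%) and 5p (54.1%). Bin counts, too, depend on the densities that chose the arms, so they are a description.

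Joining intervals over gaps of at most 0.0125 Mb gave 9 clusters of 3 or more intervals on 9p, with 37 intervals (25.9%), and 12 clusters on 13q, with 43 intervals (19.5%). Over the other arms 38.8% of intervals were in such clusters. Intervals with no other within that distance made up 47.6% on 9p and 55.9% on 13q, against 36.7%. Other sparse arms had like values. On Xq, 18q and Xp, 18.8%, 15.0% and 19.15% were in clusters, and 59.4%, 57.2% and 60.6% had no other within that distance. Crowding, too, depends on the densities that chose the arms. The largest cluster of 9p held 7 intervals within 10.9 kb at 9p13.2 (chr9:38036529-38047433), 3 of them shared and 4 GATA1-only. Another of 6 lay at 9p24.3 (chr9:250735-272511), with 1 shared, 4 GATA1-only and 1 TAL1-only interval. A cluster of 5 at 9p24.1 (chr9:4852458-4863267) held 3 shared and 2 GATA1-only intervals.

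Clusters of 13q had at most 5 intervals. That at 13q14.11 (chr13:44956809-44972358) held 4 shared and 1 TAL1-only, so all 5 were TAL1 intervals. The other cluster of 5, at 13q32.3 (chr13:99960123-99977936), was the opposite, with 4 GATA1-only and 1 TAL1-only interval and none shared. Of the clusters of 4, the shortest, 6.86 kb at 13q12.2 (chr13:27995718-28002577), held 3 GATA1-only and 1 TAL1-only interval. Another, at 13q32.1 (chr13:95923345-95938413) had all 4 intervals shared, with widths from 402 to 461 bp. No TAL1 interval was listed in 3 of the 12 clusters on 13q and in 1 of the 9 on 9p. Such clusters were not counted on the other arms, so nothing is read from these counts.

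The share of TAL1 intervals that were also GATA1 intervals was low on 13q. Of its 99 TAL1 intervals, 58 were also in the GATA1 list (58.6%, 95% exact interval 48.2 to 68.4%), and this share was the lowest of the 41 arms. On 9p the count was 40 of 59 (67.8%, 54.4 to 79.4%). Over the other 39 arms it was 79.2% (78.3 to 80.0%), near the 78.9% of all 41 arms. The bounds of 13q lie below those of the other arms together, while those of 9p overlap them at the upper end. Some single arms also had low shares, with bounds that overlap those of 13q. These were 20p (64.6%, 49.5 to 77.8%), 14q (69.0%, 61.8 to 75.5%), 12p (69.2%, 59.4 to 77.9%) and 18q (69.9%, 58.8 to 79.5%). The bounds of 13q and of 9p overlap each other and those of Xq (66.7%, 56.5 to 75.8%). Earlier results of these data were known when the arms were chosen. The choice also rested mostly on GATA1-only and shared intervals, and few shared intervals lower this share. These shares are therefore descriptions, and nothing is read from their rank or their bounds.

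The reverse share was not low. Of the GATA1 intervals 40 of 124 on 9p (32.3%, 24.2 to 41.2%) and 58 of 179 on 13q (32.4%, 25.6 to 39.8%) were also TAL1 intervals, against 30.9% over all 41 arms. In rank from the lowest these were 22 and 24 of 41. A GATA1 interval on these arms was thus also a TAL1 interval about as often as on other arms, within bounds that reach about 7 to 9 points to each side.

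**Figure D5:**
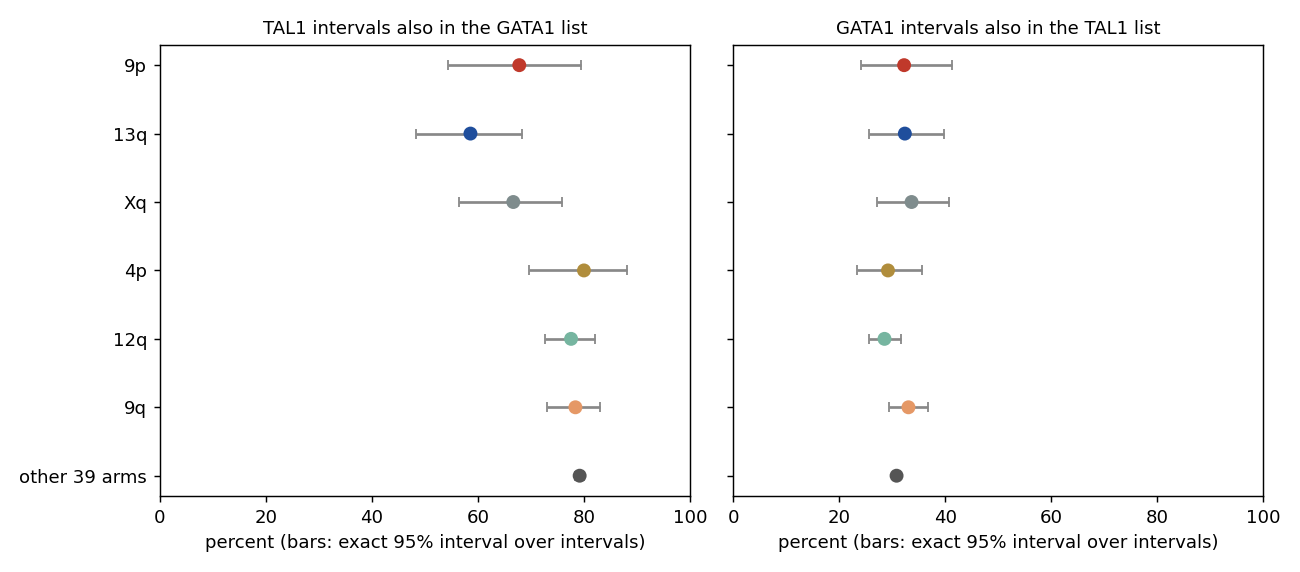
Percent of TAL1 intervals also in the GATA1 list (left) and of GATA1 intervals also in the TAL1 list (right) on 9p, 13q, Xq, 4p, 12q, 9q and the other 39 arms together, with exact 95% intervals over intervals as bars. On the left 13q (58.6%), Xq (66.7%) and 9p (67.8%) lie below the others, while on the right all values are between 28.6 and 33.7%.

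The densities that chose the arms are split here by the 3 classes. GATA1-only intervals were 4.58 times denser on the other arms than on 13q (95% interval 3.83 to 5.51, from the exact Poisson interval of the arm's count), and shared ones 4.26 times (3.29 to 5.61). TAL1-only intervals were 1.58 times denser on the other arms (1.17 to 2.21). On 9p the ratios were 3.26 (2.63 to 4.09), 3.05 (2.24 to 4.27) and 1.69 (1.08 to 2.81). Xq showed a like order, with 4.11 (3.46 to 4.92) for GATA1-only, 3.61 (2.84 to 4.67) for shared and 1.90 (1.35 to 2.76) for TAL1-only intervals. TAL1-only intervals were 7.63% of the intervals on the 41 arms, so the choice of arms rested mostly on GATA1-only and shared intervals. The ratios are therefore a description, and nothing is read from their order or their bounds. The number of reads behind each list is unknown, so whether a TAL1-only interval lacked GATA1 or fell short of a threshold in the GATA1 library cannot be told apart.

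As a description, the low share of 13q was also seen among crowded intervals. Where another interval lay within 0.0125 Mb, 31 of 51 TAL1 intervals of 13q were shared (60.8%, 46.1 to 74.2%), against 82.6% (81.6 to 83.6%) on the other arms. Where the nearest lay beyond that but within 100 kb the values were 56.2% (37.7 to 73.6%) and 75.1% (73.3 to 76.8%). With no other interval within 100 kb they were 56.2% (29.9 to 80.2%), over 16 TAL1 intervals, and 63.4% (59.4 to 67.3%). On the other arms the share fell with isolation, while on 13q it was about level, within bounds too wide to show a trend. On 9p 25 of 33 (75.8%, 57.7 to 88.9%), 12 of 20 (36.1 to 80.9%) and 3 of 6 (11.8 to 88.2%) were shared, and each of these bounds holds the value of the other arms.

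Along 13q the share of TAL1 intervals also in the GATA1 list was 45.8% (25.6 to 67.2%, 24 TAL1 intervals) in 13q12 and 9 of 20 (23.1 to 68.5%) in 13q32. It was 66.7% (43.0 to 85.4%, 21) in 13q14 and 81.2% (54.4 to 96.0%, 16) in 13q34. These bounds overlap, which does not decide whether the bands differ, and no test between the bands was made. Of the 41 TAL1-only intervals 13 were in 13q12 and 11 in 13q32. On 9p the share was 76.9% (56.4 to 91.0%, 26 TAL1 intervals) in 9p13 and 57.9% (33.5 to 79.8%, 19) in 9p24.

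TAL1-only intervals lay a median of 20.7 kb from the nearest GATA1 interval on 9p (range 0.418 to 156 kb) and 27.6 kb on 13q (0.281 to 1932 kb), against 12.8 kb on the other arms. Beyond 100 kb were 3 of 19 on 9p (15.8%) and 14 of 41 on 13q (34.1%), against 12.9%. Such distances depend on the densities that chose the arms, so they are a description. Within 1 kb of a GATA1 interval were 4 of 19 on 9p (21%) and 5 of 41 on 13q (12.2%), against 18.3% on the other arms. The farthest on 13q, chr13:103258943-103259357 at 13q33.1, stood 1.93 Mb from a GATA1 interval, with 1.93 Mb empty before it and 5.28 Mb after it. On 9p the farthest was the first interval of the arm (chr9:95047-95376), at 0.156 Mb. The interval nearest to a TAL1-only one was itself TAL1-only in 11 of 41 cases on 13q and 2 of 19 on 9p. That count was not made on the other arms, so nothing is read from it. In 13q12.13, 3 TAL1-only intervals followed each other, at 25507431, 25588631 and 25654927, with no GATA1 interval between them.

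GATA1-only intervals lay a median of 30.9 kb from a TAL1 interval on 9p and 69.0 kb on 13q, against 37.6 kb on the other arms. On 13q 42.1% were beyond 100 kb, against 21 of 84 on 9p and 25.4% on the other arms. These distances, too, depend on the densities that chose the arms.

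The loneliest intervals, with more than 500 kb empty on each side, numbered 4 on 9p and 15 on 13q. On 13q 9 were GATA1-only, 4 TAL1-only and 2 shared. Over all 41 arms these classes made up 63.9%, 7.63% and 28.5% of all intervals. A shared one at 13q21.32 (chr13:67704638-67704854) stood between 6.73 and 1.58 Mb of empty sequence. A GATA1-only one of 144 bp at 13q31.1 (chr13:81174027-81174170) stood before the 10.5 Mb stretch. A TAL1-only one of 121 bp at 13q22.1 (chr13:74039329-74039449) followed a stretch of 4.76 Mb. Of the 4 on 9p, 3 were GATA1-only and 1, at 9p11.2, was shared. Such intervals were not counted on the other arms, and their number depends on the densities that chose the arms. Nothing is therefore read from their number or classes.

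Widths of the intervals were like those of the same class elsewhere. Shared intervals had a median of 362 bp on 9p and 380 bp on 13q, against 373 bp on the other arms. GATA1-only intervals had 294 and 261 bp, against 264 bp, and TAL1-only intervals 278 and 320 bp, against 273 bp. Each median of these arms lay within the interquartile range of the class on the other arms (269 to 490, 168 to 389 and 187 to 376 bp). The widest shared intervals were 853 bp at 9p13.2 (chr9:37839612-37840464) and 825 bp at 13q33.3 (chr13:108535668-108536492). The widest GATA1-only intervals were 925 bp at 9p13.2 (chr9:37465179-37466103) and 846 bp at 13q12.3 (chr13:31735960-31736805). For TAL1-only they were 526 bp at 9p24.1 (chr9:4763102-4763627) and 589 bp at 13q12.3 (chr13:30914624-30915212). Shared intervals have identical boundaries in both lists, so their width is no separate measure of either factor.

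Genes were placed by band only, since no annotation of build hg19 was used, and a count for a band does not assign an interval to a gene. Of 53 landmark genes listed for the arms, 3 lay in bands with 0 intervals, namely GLIS3, PCDH17 and SLITRK5. The lists were picked by hand and several of their genes share a band, so nothing is read from how the 3 fall among them. Band 9p21.3, with CDKN2A, CDKN2B, MTAP and the interferon genes IFNB1 and IFNA1, held 1 interval in 5.70 Mb, a GATA1-only one at chr9:20692527-20692851. MLLT3, a factor of blood stem cells, is in the same band. TEK, a receptor of endothelial and blood stem cells at 9p21.2, shared its band with 1 interval, and ACO1, an iron regulatory protein at 9p21.1, with 8. Those of 9p21.1 all lay past the empty stretch that ends at 32552516, and the place of ACO1 relative to it was not determined. JAK2 at 9p24.1 shared its band with 25.

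On 13q, FOXO1 and ELF1, transcription factor genes at 13q14.11, shared their band with 24 intervals, and the clotting factor genes F7 and F10 at 13q34 with 24, of which 13 were shared by both factors. RB1 at 13q14.2 had 7 in its band, as had LCP1, a leukocyte actin-bundling protein at 13q14.13, and FLT3, a receptor of blood progenitors at 13q12.2. Those of 13q14.2 all lay past the 2.34 Mb empty stretch at chr13:46863381-49200131, and the place of RB1 relative to it was not determined. The 7 intervals of 13q12.2 comprised 5 GATA1-only and 2 TAL1-only, with 0 shared. MIR17HG at 13q31.3 shared its band with 10, of which 8 were GATA1-only and 2 shared.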

How the data were processed

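GATA1 and TAL1 ChIP-seq intervals of control K562 cells were taken from the deposited lists, which give chromosome, start and end in 3 columns with no peak height. Per the submitters' processing notes, build hg19 and the tools MACS2, Bowtie2, Trimmomatic and deepTools were used (no versions). Thresholds, pooling and read depth are not given in the sources used here, and the other 10 libraries were not used. The groups came from the sample titles.

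Rows of both lists were merged on identical coordinates. None overlapped another or passed a chromosome end. Bands came from circlize 0.4.16 and lengths from GenomeInfoDb 1.38.1. Arms leave out centromeric, variable and stalk bands. Counts, exact intervals (scipy 1.17.1) and figures (matplotlib 3.10.9) were made in Python 3.11.15 with pandas 2.3.3 and numpy 2.4.6. Positions count from 1. The computation of stretches, clusters and intervals was tested on simulated data. No test was run, because each factor has 1 library. Named sites are the 6 longest stretches and those of at least 3 Mb, clusters of 5 or more intervals or the 3 largest, the 3 fullest bins, and the farthest and widest intervals of each arm. Further groups, lone intervals and smaller clusters were named after their values were seen. Members, lists and measures were chosen with earlier results of these data known. Gene bands are from general knowledge, and all 53 symbols were on the stated chromosome in RefSeq (GRCh38.p14). With no genome of build hg19, no sequence is printed.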

Additional observations from a re-analysis of the deposited data

How the results depend on the processing

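Of 40 alternative settings over 16 values, 31 stayed within the exact interval of a share or within 1.5 times a count, length or distance. When narrow intervals (under the median of 297 bp) were left out, 76 of 143 intervals remained on 9p and 122 of 220 on 13q, and the share of GATA1 intervals also in the TAL1 list on 13q was 47.4%, against 32.4%. With the TAL1 list alone the longest empty stretch of 9p was 12.8 Mb, against 7.23 Mb. With a minimum of 2 Mb, 43.3% of 13q was in empty stretches, against 65.6%, while 9p had 71.0%. In bins of 500 kb the fullest 10% held 68.5% of intervals on 9p and 52.8% on 13q, and in bins of 2 Mb 37.3% and 35.7%, against 56.6% and 45.4%. The lower numbers of intervals, the longer stretch, the smaller empty share and the shifts with bin size follow from how these settings are made. The cause of the higher share with wide intervals on 13q was not tested, and the same setting gave 38.8% on 9p, against 32.3%. The share of TAL1 intervals also in the GATA1 list ranged from 67.8 to 74.6% on 9p and from 58.6 to 64.8% on 13q over its settings. On both arms the main setting gave the lowest value. This share was not recomputed for the other arms under these settings.

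Read depth is unknown, so a stretch without intervals shows only that none was listed. With 59 and 99 TAL1 intervals, a share is known to about 10 to 13 points. Copy number and the input were not analysed here, and their part in the low density was not tested.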

Other observations

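Relative to the number of genes, chromosome 13 was also low. The intervals counted are those whose low density chose 13q, so this ratio is a description. Intervals were counted on the arms only, without centromeric, variable and stalk bands, and were set against the genes of the whole chromosome. Chromosome 13 carries 338 protein-coding gene symbols in RefSeq (GRCh38.p14), and the 220 intervals of 13q made 65.1 per 100 of them, against 123 per 100 over chromosomes 1 to 22 and X. Chromosome X had 49.2, chromosome 14 had 67.1 and the gene-rich chromosome 19 had 69.7. The number of genes on 9p alone was not counted, and chromosome 9 as a whole had 109. These counts use another build than the intervals and no coordinates, and no test was made.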
